A study of Mus musculus with 6 samples.

Results

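The tumour necrosis factor (TNF) ligand and TNF receptor superfamilies were examined in RNA of whole mouse lung. Members were taken by gene symbol: every symbol made of Tnfsf or Tnfrsf followed by a number, and Tnf, Lta, Ltb, Ltbr, Cd40, Fas and Fasl. This gave 38 genes of the 23183 in the tables, 15 ligands and 23 receptors. The libraries labelled LPS came from lungs given lipopolysaccharide, a cell wall component of Gram-negative bacteria, through the trachea (n = 3). Those labelled saline came from lungs given saline by the same route (n = 3), and all 6 are of C57BL/6 background. The titles name wild-type mice for every library. The genotype field names wild type for the saline libraries, LCN2-/- for LPS 1 and LPS 2 and LCN4-/- for LPS 3. Lcn2 RNA was 13.60, 13.29 and 13.82 in LPS 1, 2 and 3, against 8.20, 11.28 and 10.11 in saline 1, 2 and 3 (log2 scale), so the values of LPS 1 and LPS 2 go against a label of Lcn2 knockout, although a value per gene does not show whether part of the gene is missing. If the genotype field were right, genotype and treatment could not be told apart. The sources used here do not give age, sex, dose or time after instillation. They also do not say that each library is a separate animal, and the spread behind each p-value may therefore be technical.

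TNF family ligands are trimeric proteins, most of them made as membrane proteins that can be shed, and each binds one or a few receptors. Some receptors carry a death domain and can start cell death, others recruit TRAF adaptor proteins and turn on NF-kB, and a few are decoys that bind a ligand without passing on its signal. In the lung, TNF released by macrophages is an early signal after LPS exposure and acts on endothelium, epithelium and incoming leukocytes.

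Values are log2(expression value + 1) as the authors deposited them, and each difference is the LPS mean minus the saline mean on that scale, which understates the change of genes with low values. The tables give no counts, so depth is unknown. Comparisons are made between libraries, for 1 gene, for the ratio of 2 genes or for a summed list. Apart from saying which gene makes up most of a sum, levels of different genes are not ranked. The table of LPS 3 ends at symbols beginning with Slc25a4, so 32 of the 38 members, all those whose symbols start with Tn, have 2 LPS values, and 6 have 3. The lung marker Sftpc, of alveolar type 2 cells, lay between 13.46 and 13.60 in the LPS libraries and between 13.85 and 14.00 in the saline libraries, and no alveolar epithelial marker of the list was at 0 in any library. Saline 2 stood apart from the other saline libraries in inflammatory genes. Its summed level of 9 neutrophil markers was 1970, against 653 and 701 in saline 1 and 3, so results without it are given below.

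Tnf, Lta and Ltb lie side by side on chromosome 17, and the stretches before the GENCODE gene starts of Tnf and Ltb are shown because these neighbours behaved differently. The third sequence is from Tnfrsf9, whose difference was the second largest of the family. All are RefSeq promoter sequence of GRCm38.p6, the mm10 build, read 5′ to 3′ on the gene's strand. Capitals mark the TATA box (TATAAA) in Tnf and the NF-kB consensus in Ltb and Tnfrsf9.
Tnf, chr17:35202008-35202257, minus strand: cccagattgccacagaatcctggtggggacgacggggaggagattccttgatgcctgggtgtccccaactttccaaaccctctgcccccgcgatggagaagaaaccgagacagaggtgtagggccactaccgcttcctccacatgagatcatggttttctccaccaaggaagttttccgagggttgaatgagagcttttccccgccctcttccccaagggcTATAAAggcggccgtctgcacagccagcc
Ltb, chr17:35194257-35194438, plus strand: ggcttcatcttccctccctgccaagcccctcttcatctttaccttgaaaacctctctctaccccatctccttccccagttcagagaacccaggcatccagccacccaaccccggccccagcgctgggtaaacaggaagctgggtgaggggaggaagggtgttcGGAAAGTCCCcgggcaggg
Tnfrsf9, chr4:150927952-150927981, plus strand: agctGGGGATTTCCCaggaggccctgctca

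Of the 38 members, 29 had a value of at least 1 before the log in at least 3 libraries and were tested. Of these 29, 17 were higher in LPS, 6 were lower and 6 did not pass the test (limma fitted to the 13116 genes that met the same minimum, Benjamini-Hochberg adjusted p under 0.05). Among the ligands 4 were higher and 2 lower of 9 tested, and among the receptors 13 were higher and 4 lower of 20. Over all genes tested, 25.7% were higher in LPS and 24.3% were lower. Among the 2821 tested genes that, like 24 of the tested members, have no value in LPS 3, 22.5% were higher and 22.1% were lower. The median difference of the tested members was 0.78, against 0.02 over all genes tested. It was 0.81 for the receptors but -0.30 for the ligands. At least 2-fold differences were found for 9 members higher and 3 lower in LPS, while 9.26% and 8.87% of all genes reached that size. LPS and saline values did not overlap in 25 of the 29 tested members, against 63.4% of all genes tested. Among members without a value in LPS 3 this held for 22 of 24, against 67.4% of all such genes, and among those with 3 LPS values for 3 of 5. These counts move with the processing. Without a filter on low values 9 members were called higher and 4 lower, and with each library scaled to an equal sum of values before the log (equal sums) 7 were higher and 9 lower, where 798 and 8342 of all genes were called. Without LPS 1, where most members keep 1 LPS value that is assumed to vary like the other libraries, 10 were called higher and 6 lower. Without saline 2 the counts were 16 and 6.

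**Figure D1:**
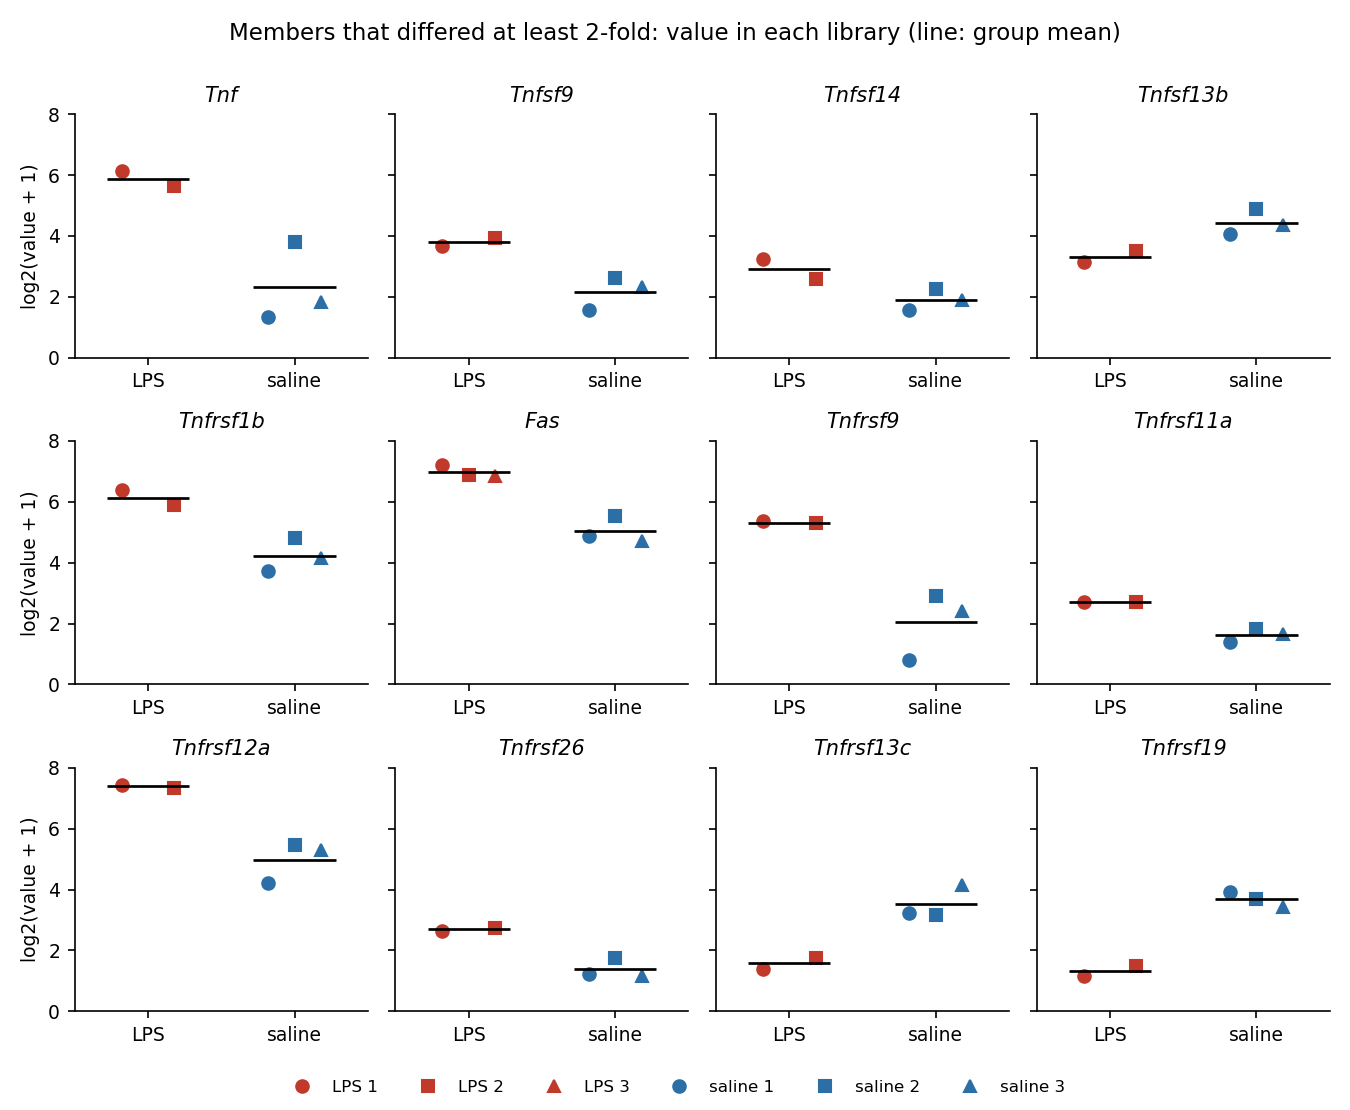
Deposited log2(value + 1), on the vertical axis, of the 12 members that passed the test with a difference of at least 1 on the log2 scale, in LPS (red) and saline (blue) libraries; symbols mark the library number and lines the group means. LPS and saline values do not overlap in any of the 12 panels, and saline 2 (blue square) is the highest saline value in Tnf at 3.81 and in Tnfrsf9 at 2.91. The 12 were picked by their difference in these same libraries, and 63.4% of all genes tested also do not overlap.

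Tnf, the founding ligand, was far higher in LPS lungs, while the lymphotoxin genes on either side of it did not pass the test. Tnf (chromosome 17, 35199381 to 35202007, minus strand) was 6.12 and 5.65 in LPS 1 and 2, against 1.33, 3.81 and 1.84 in saline 1, 2 and 3. Both LPS values were above every saline value, and saline 2 was well above the other saline libraries. The difference was 3.56 (SE 0.61; limma adjusted p = 0.00211), an 11.8-fold change of value + 1, fitted on 2 LPS values. Without saline 2 it was 4.30 (limma adjusted p = 0.000463). With no filter on low values, which brings in all 23183 genes, Tnf did not pass (limma adjusted p = 0.0668). Lta encodes lymphotoxin alpha, which forms a secreted trimer or joins lymphotoxin beta, the product of Ltb, on the cell surface. Lta was 1.16, 0.96 and 0.68 in LPS, against 0.79, 1.23 and 1.77 in saline. Ltb was 5.57, 5.65 and 5.04 in LPS, against 5.23, 5.74 and 6.20 in saline. Both groups overlapped for these genes, with differences of -0.33 (SE 0.24; limma adjusted p = 0.281) for Lta and -0.30 (SE 0.26; limma adjusted p = 0.350) for Ltb. Tnf and Lta are 1157 bases apart and Ltb lies 3060 bases beyond Tnf. The log2 ratio of Tnf to Ltb was 0.56 in LPS 1 and -0.0 in LPS 2, against -4.59, -2.01 and -4.81 in saline (exact permutation p = 0.2, two-sided, the smallest possible). With equal sums, Lta (-0.75) and Ltb (-1.09) were called lower and Tnf (2.85) was still called higher.

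Tnfrsf1a, Tnfrsf1b and Ltbr, the main receptors of these ligands, were all higher in LPS as deposited, with the largest difference for Tnfrsf1b. Tnfrsf1b, the TNF receptor found mainly on leukocytes and endothelium, was 6.38 and 5.90 in LPS 1 and 2, against 3.74, 4.82 and 4.15 in saline. The LPS values were all above the saline values, and the difference was 1.91 (SE 0.31; limma adjusted p = 0.00160). Tnfrsf1a, the death domain TNF receptor present on most cells, was 6.69 and 6.52 in LPS, against 5.71, 5.84 and 5.98 in saline. Its difference of 0.77 (SE 0.18; limma adjusted p = 0.00831) depended on the scaling, at 0.25 with quantile normalization and -0.04 with equal sums, and on LPS 1, without which it was 0.68 (limma adjusted p = 0.0631). Ltbr, the lymphotoxin beta receptor, has 3 LPS values, 5.60, 5.64 and 5.57, against 4.73, 4.78 and 4.90 in saline. These were tight within each group and did not overlap (difference 0.80, SE 0.14; limma adjusted p = 0.00160), but with equal sums the difference was 0.02. In the ratio of Tnfrsf1b to Tnfrsf1a within a library a common factor cancels, which covers equal sums but not quantile normalization. Its log2 was -0.31 and -0.63 in LPS and -2.06, -1.05 and -1.89 in saline, so the ratio was higher in both LPS libraries than in any saline library. An exact permutation test of that ratio gave p = 0.2, two-sided, which is the smallest p that 2 against 3 libraries allow.

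In bulk tissue, a different number of cells of a type and a different amount of RNA per cell cannot be told apart. Beside Tnf and its receptors, 8 of 9 neutrophil markers tested were higher and 0 lower, with a summed level of 9790 to 25400 in LPS, against 653 to 1970 in saline. Of 10 monocyte and macrophage markers, 9 were higher and 1 lower in LPS, among them Ms4a6d (3.30) and the integrin gene Itgam (2.78), while Lyz2, the lysozyme gene, fell by 1.0. The summed level of all 10 was 2450 to 2720 in LPS, against 3580 to 5190 in saline, but most of it was Lyz2. The other 9 summed to 451 to 812 in LPS, against 128 to 242 in saline. Of 10 endothelial markers 4 were lower and 0 higher, among them Aplnr (-2.60), which met the test's minimum through its saline values only, and Ptprb (-2.21), and the 8 with all values summed to 694 to 775 in LPS, against 832 to 946 in saline. The other 6 endothelial markers did not pass: Cldn5 (0.20), Esam (0.32), Pecam1 (-0.24), Cdh5 (-0.50), Emcn (-0.54) and Sox17 (-0.87). No marker of these lists was at 0 in any library, and their part in the TNF family differences was not tested.

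Among death ligands and receptors, Fas and the TRAIL receptor gene were higher in LPS while the TRAIL gene itself was lower. Fas, the death domain receptor of Fas ligand (chromosome 19, 34290666 to 34327772), has a value in every library and was 7.22, 6.89 and 6.86 in LPS, against 4.88, 5.52 and 4.73 in saline. The groups were far apart, with a difference of 1.95 (SE 0.22; limma adjusted p = 0.000257). Fas passed under every alternative tried, with 1.52 under quantile normalization and 1.16 with equal sums. The log2 ratio of Fas to Ltbr was 1.65, 1.27 and 1.32 in LPS, against 0.16, 0.76 and -0.17 in saline, with no overlap (exact permutation p = 0.1, two-sided, the smallest that 3 against 3 libraries allow). The Fas ligand gene, Fasl, was too low to be tested, at 1.46, 0.50 and 1.21 in LPS and 0.42, 0.79 and 0.92 in saline, and the groups overlapped. Tnfsf10, which encodes TRAIL, was 4.82 and 4.25 in LPS, against 5.49, 5.18 and 5.21 in saline. It fell by 0.76 (SE 0.21; limma adjusted p = 0.0178), and without LPS 2 by 0.48 (limma adjusted p = 0.161). Tnfrsf10b, the mouse TRAIL death receptor gene, was 2.72 and 2.17 in LPS, against 1.24, 1.58 and 1.71 in saline. Its difference was 0.94 (SE 0.22; limma adjusted p = 0.00879), and it no longer passed without LPS 1 (0.66; limma adjusted p = 0.0662) or with equal sums (0.34). Tnfrsf21, the gene of death receptor DR6, had a difference of 0.47 (limma adjusted p = 0.0553) that turned to -0.26 with equal sums. Tnfrsf25, the receptor gene for TL1A, was below the test's minimum.

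The CD137 pair, which costimulates activated T cells and is also carried by myeloid and stromal cells, rose on both sides. Its receptor gene Tnfrsf9 (chromosome 4, 150914562 to 150946102) was 5.36 and 5.29 in LPS, against 0.81, 2.91 and 2.43 in saline. The LPS libraries were close together and saline 1 was lowest. The difference was 3.27 (SE 0.51; limma adjusted p = 0.00139). The ligand gene Tnfsf9 was 3.66 and 3.94 in LPS, against 1.57, 2.62 and 2.33 in saline, a difference of 1.63 (SE 0.29; limma adjusted p = 0.00250). Without a filter on low values neither passed, at limma adjusted p = 0.0539 for Tnfrsf9 and 0.0582 for Tnfsf9, and both were called with equal sums, at 2.58 and 0.94. Tnfrsf9 overlaps Camta1 on the opposite strand, and the sources used here do not say whether counting used strand. In the same libraries 5 of 9 T cell markers were lower and 0 higher, with Cd2 at -1.25 and Cd4 at -1.10, and the summed level of 9 of the list was 50.2 to 58.9 in LPS against 67.1 to 99.9 in saline. The other 4 tested T cell markers did not pass: Cd3d (-0.03), Cd3g (0.07), Cd8a (-0.29) and Lck (-0.48). Of 7 NK cell markers 0 passed, and the 8 on the list summed to 44.7 to 162 in LPS, against 54.9 to 85.6 in saline. No T or NK cell marker was at 0, and the part of these cells was not tested.

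Other costimulatory members had smaller differences. Tnfsf14, which encodes LIGHT, a ligand of both Ltbr and Tnfrsf14, was 3.25 and 2.60 in LPS, against 1.57, 2.27 and 1.89 in saline. The difference was 1.01 (SE 0.26; limma adjusted p = 0.0121), and it was lost without LPS 1 (0.69; limma adjusted p = 0.0831), with equal sums (0.36) and without a filter on low values. Tnfrsf14, the LIGHT receptor also called HVEM, was 3.18 and 3.03 in LPS, against 2.89, 2.73 and 3.15 in saline, and these overlapped. Its difference of 0.18 did not pass and turned to -0.54 with equal sums. Tnfrsf4, which encodes OX40 of activated T cells, was 2.04 and 1.96 in LPS and 0.66, 1.30 and 1.60 in saline. The call (0.81, SE 0.26; limma adjusted p = 0.0317) ended without LPS 1 (limma adjusted p = 0.0980), LPS 2 (0.0921), saline 1 (0.0528) or saline 2 (0.0595). Tnfrsf18, the gene of GITR on regulatory T cells, had a difference of 0.31 (limma adjusted p = 0.238), and -0.36 with equal sums. Tnfsf4, Tnfsf8, Tnfsf15 and Tnfrsf8 were below 1 in every library. Tnfsf18, the ligand gene of GITR, was also below the minimum, at 0.47 and 0.53 in LPS and at most 0.06 in saline. At such levels the tables differ in make: of values above 0 and under 0.01 there are 11 to 24 in each LPS library and 1505 to 1936 in each saline library, so no fold is given. Exact zeros number 6097 and 6223 in LPS 1 and 2, against 3869 in each saline library. This difference in make goes with the groups and cannot be told apart from treatment.

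**Figure D2:**
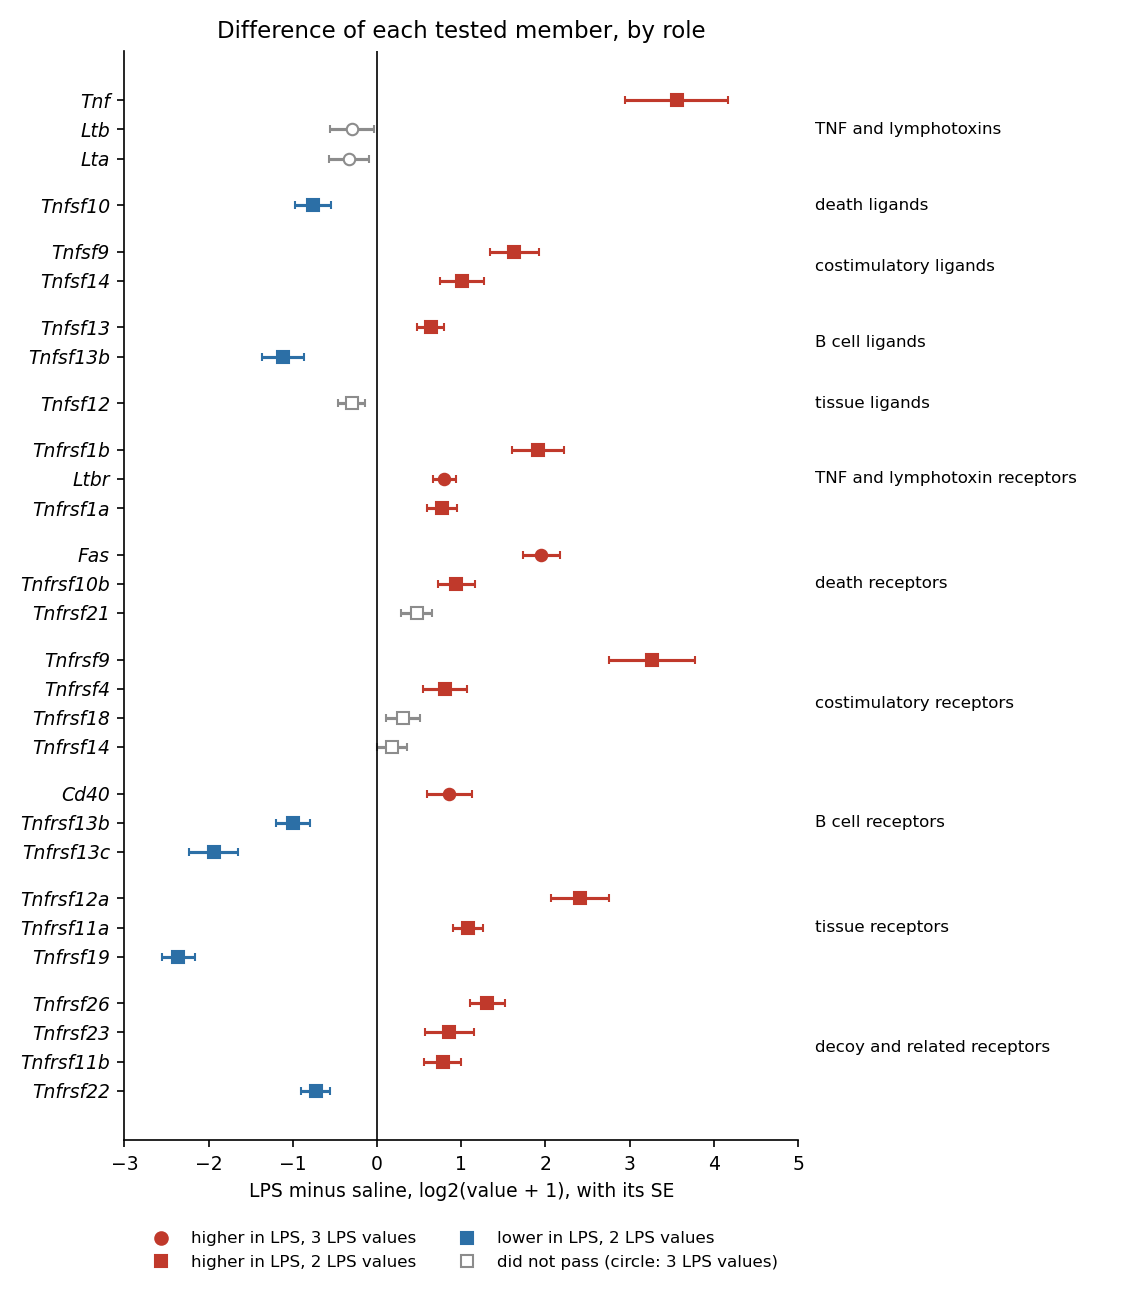
LPS minus saline difference on the log2(value + 1) scale, on the horizontal axis, with its SE from limma, for the 29 tested members in order of role, ligands above receptors. The 17 members in red passed as higher in LPS, the 6 in blue as lower, and the 6 with open grey symbols did not pass; circles have 3 LPS values and squares have 2.

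In the B cell survival system the genes of BAFF and of both receptors that could be tested were lower in LPS, while the APRIL gene was higher. Its ligands are BAFF, encoded by Tnfsf13b, and APRIL, encoded by Tnfsf13, and its receptors are the BAFF receptor gene Tnfrsf13c, the TACI gene Tnfrsf13b and the BCMA gene Tnfrsf17. Tnfrsf13c (chromosome 15, 82221743 to 82224369) was 1.39 and 1.76 in LPS, against 3.24, 3.17 and 4.14 in saline, and fell by 1.94 (SE 0.29; limma adjusted p = 0.00121). Tnfrsf13b was 1.38 and 0.97 in LPS, against 2.09, 2.40 and 2.03 in saline, and fell by 1.0 (SE 0.20; limma adjusted p = 0.00407). Both receptors were below every saline value in both LPS libraries and passed in each alternative that gave them a value. Tnfrsf17, a plasma cell receptor gene, was at most 0.24 in LPS and 0.85 in saline and was not tested. Beside these receptors, 9 of 10 B cell markers were lower in LPS and 0 higher, with a median difference of -2.11; Cr2 met the minimum through saline only. Among them Ms4a1, which encodes CD20, was at -3.07 and Cd22 at -2.50. The summed level of the 10 markers was 50.3 to 82.1 in LPS, against 246 to 387 in saline, and none was at 0. The part of these cells in the fall of Tnfrsf13c and Tnfrsf13b was not tested.

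The ligands of these receptors diverged from each other. Tnfsf13b was 3.14 and 3.50 in LPS, against 4.07, 4.90 and 4.36 in saline, and fell by 1.12 (SE 0.25; limma adjusted p = 0.00691). Tnfsf13 was 4.44 and 4.47 in LPS, against 3.74, 3.92 and 3.81 in saline, a difference of 0.64 (SE 0.16; limma adjusted p = 0.0103). Both genes had groups that did not overlap. The Tnfsf13 call ended without LPS 2 (limma adjusted p = 0.0600) and its direction turned to -0.14 with equal sums, while Tnfsf13b did not pass without a filter on low values (limma adjusted p = 0.0792). Within each library the log2 ratio of Tnfsf13 to Tnfsf13b was 1.40 and 1.04 in LPS, against -0.36, -1.02 and -0.58 in saline. Both LPS ratios were above all saline ratios (exact permutation p = 0.2, two-sided, the smallest possible). Tnfsf13 and Tnfsf12 are 465 bases apart on the same strand, and a read-through transcript, Tnfsfm13, overlaps both, so reads may be shared between them. Cd40, the receptor through which T cells help B cells and which macrophages, dendritic cells and epithelium also carry, was 5.18, 4.41 and 4.30 in LPS, against 3.31, 4.12 and 3.89 in saline. Unlike the BAFF and TACI receptor genes it was higher in LPS (0.86, SE 0.27; limma adjusted p = 0.0248). The call ended without LPS 1 (0.59; limma adjusted p = 0.0734), without saline 1 (0.63; limma adjusted p = 0.0778), with quantile normalization (0.74) and with equal sums (0.10). Of 7 dendritic cell markers 4 were lower and 0 higher, with Clec9a at -1.17 and Itgae at -1.01, the second of which met the minimum through saline only, and the 6 with all values summed to 19.5 to 28.2 in LPS, against 34.1 to 36.5 in saline, none at 0. Their part in the Cd40 value was not tested.

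**Figure D3:**
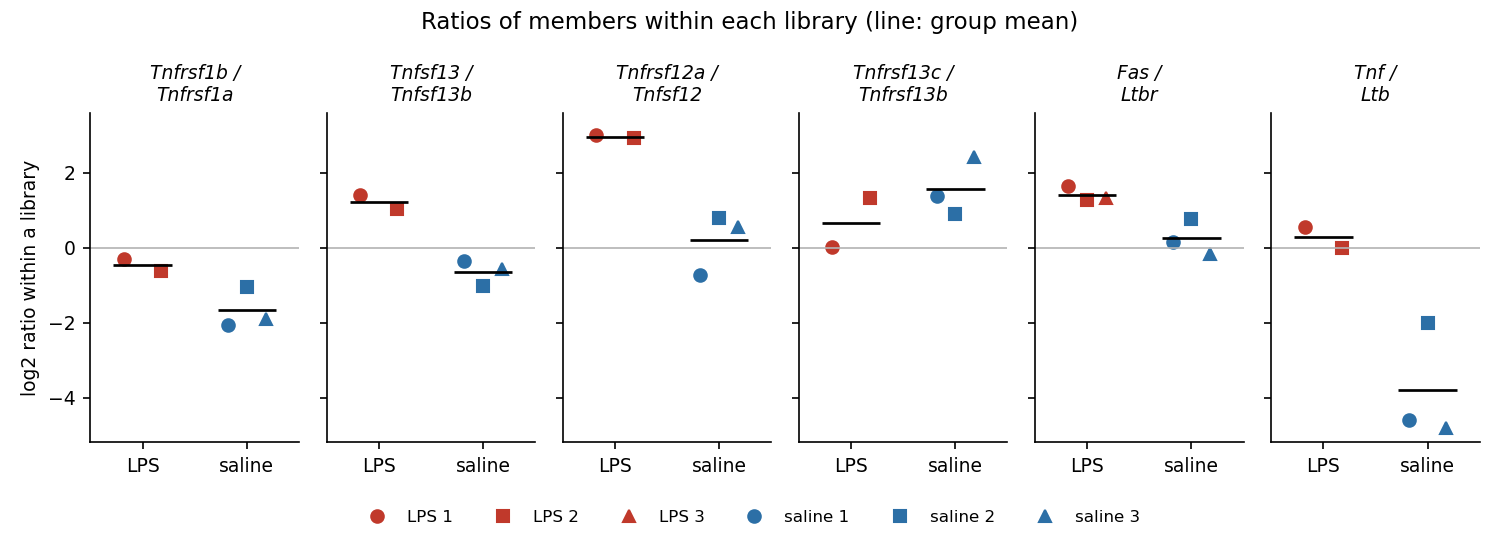
Log2 of the ratio of 2 members' values within the same library, on the vertical axis, in LPS (red) and saline (blue) libraries, with lines at the group means; a common scaling of a library cancels in this ratio. LPS and saline values do not overlap in 5 of the 6 ratios, which were chosen by hand, and no share over other gene pairs was computed. For Tnfsf13 over Tnfsf13b the means are 1.22 in LPS and -0.66 in saline. For Tnfrsf13c over Tnfrsf13b the groups overlap.

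Receptors tied to tissue injury and growth held the largest fall and one of the largest rises. Tnfrsf12a encodes Fn14, the receptor of TWEAK, which is induced in epithelium and stroma on injury. It lies at chromosome 17, 23675445 to 23677468, and was 7.43 and 7.35 in LPS, against 4.20, 5.45 and 5.29 in saline. The LPS libraries were close together while saline 1 lay more than 1 below the other saline libraries. The difference was 2.41 (SE 0.34; limma adjusted p = 0.000953), and it passed under every alternative, with 1.97 under quantile normalization and 1.61 with equal sums. The TWEAK gene Tnfsf12 was 4.47 and 4.49 in LPS, against 4.89, 4.68 and 4.76 in saline, and its difference of -0.30 (SE 0.16; limma adjusted p = 0.147) did not pass. It was called lower with quantile normalization (-0.54) and with equal sums (-1.08). The log2 ratio of receptor to ligand was 3.02 and 2.92 in LPS, against -0.73, 0.79 and 0.55 in saline.

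Tnfrsf19 encodes TROY, a receptor known from epithelial progenitors and the nervous system, and it had the largest fall in the family. The gene lies at chromosome 14, 60963875 to 61046490, and was 1.16 and 1.49 in LPS, against 3.91, 3.69 and 3.44 in saline. All saline libraries were more than 1 above both LPS libraries. The gene fell by 2.36 (SE 0.20; limma adjusted p = 0.000112) and was called lower under every alternative, by 2.23 under quantile normalization and 2.97 with equal sums. In the same libraries 7 of 10 fibroblast markers and 2 of 10 alveolar epithelial markers were lower, against 24.3% of all genes tested, while 0 and 1 were higher. The epithelial share is near that of all genes. The summed fibroblast level, over 9 genes, was 476 to 622 in LPS, against 1570 to 2350 in saline, but most of it was Inmt. Fbln1 was at -2.26 and Inmt at -2.25, while Pdgfra (0.24), Dcn (-0.03) and Lum (-0.45) did not pass. No marker was at 0. The epithelial markers Rtkn2 and Sftpb were at -2.02 and -1.60, Epcam was higher at 1.0, and the other 7 did not pass. That list summed to 14900 to 16400 in LPS, against 20000 to 21000 in saline. Most of that sum was Sftpc, which did not pass (-0.39). The part of fibroblasts and epithelial cells in the Tnfrsf19 difference was not tested. Tnfrsf11a, the gene of RANK, which drives osteoclast formation and acts in epithelium and dendritic cells, was 2.71 and 2.70 in LPS, against 1.38, 1.83 and 1.66 in saline. It was higher by 1.08 (SE 0.18; limma adjusted p = 0.00189), or by 0.46 with equal sums, where it did not pass. Its ligand gene Tnfsf11 was at most 0.78 in any library and was not tested.

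Of 4 decoy and related receptors, 3 were called higher and 1, Tnfrsf22, was called lower. Tnfrsf11b encodes osteoprotegerin, a soluble decoy for RANK ligand and TRAIL, and was 2.37 and 1.69 in LPS, against 1.25, 1.39 and 1.10 in saline. The call (0.78, SE 0.22; limma adjusted p = 0.0190) ended without LPS 1 (0.45; limma adjusted p = 0.156) and without saline 3 (0.71; limma adjusted p = 0.0579). On chromosome 7, Tnfrsf26, Tnfrsf22 and Tnfrsf23 stand in a row on the minus strand with gaps of 6083 and 16147 bases. Mouse Tnfrsf22 and Tnfrsf23 encode TRAIL-binding decoys. Tnfrsf26 was 2.64 and 2.73 in LPS, against 1.23, 1.76 and 1.15 in saline, and was higher by 1.31 (SE 0.21; limma adjusted p = 0.00159). Tnfrsf23 was 2.22 and 2.16 in LPS, against 0.76, 1.88 and 1.35 in saline, and was higher by 0.86 (SE 0.29; limma adjusted p = 0.0375). Tnfrsf22, between them, was 0.65 and 0.71 in LPS, against 1.35, 1.60 and 1.27 in saline, and fell by 0.73 (SE 0.17; limma adjusted p = 0.00927). The middle gene of the row thus differed in direction from both neighbours. It met the minimum through its saline values only, and its call ended with quantile normalization (-0.44; limma adjusted p = 0.0789). The Tnfrsf23 call ended without LPS 1 or LPS 2 (both limma adjusted p = 0.105), saline 1 (0.0672) or saline 3 (0.0781). The 3 are close paralogs overlapped by an antisense gene, so reads may have been split between them in ways the sources do not describe.

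The scaling decides the direction of the smaller differences. Relative to the geometric mean of all 6 libraries, the summed values of a library were 1.30 to 1.34 in LPS and 0.71 to 0.84 in saline. This gap between the deposited tables goes with the groups, so it cannot be told apart from treatment for the tested members. With equal sums, the median of all genes tested moved to -0.67, against 0.02 as deposited, a shift that takes the members with it. Of the 17 members called higher, 7 were also called higher under both quantile normalization and equal sums: Tnf, Tnfsf9, Tnfrsf1b, Fas, Tnfrsf9, Tnfrsf12a and Tnfrsf26. Of the 6 called lower, 5 kept that call under both: Tnfsf10, Tnfsf13b, Tnfrsf13b, Tnfrsf13c and Tnfrsf19. With 8342 of 13116 genes called lower under equal sums, a lower call is kept there more easily than a higher call. Equal sums ended the higher call of Tnfsf14, Tnfsf13, Tnfrsf1a, Ltbr, Tnfrsf10b, Tnfrsf4, Cd40, Tnfrsf11a, Tnfrsf11b and Tnfrsf23. Testing all 23183 genes without a filter, on the deposited values, ended the calls of 11 members: Tnf, Tnfsf9, Tnfsf10, Tnfsf14, Tnfsf13b, Tnfrsf10b, Tnfrsf4, Tnfrsf9, Cd40, Tnfrsf11b and Tnfrsf23. Relative to the median of all genes, the members moved by at most 0.29 between the deposited values and equal sums, the most for Tnfrsf22, and by at most 0.51 between the deposited values and quantile normalization, the most for Tnfrsf1a. Tnf stood 3.54 above that median as deposited and 3.52 above it with equal sums, Ltbr 0.78 and 0.69, and Tnfrsf1a 0.75 and 0.63. Saline 2 was the highest saline library in 13 of the 17 members called higher, against 67.2% of all genes called higher, and in 16 of the 29 members tested, against 38.9% of all genes tested.

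**Figure D4:**
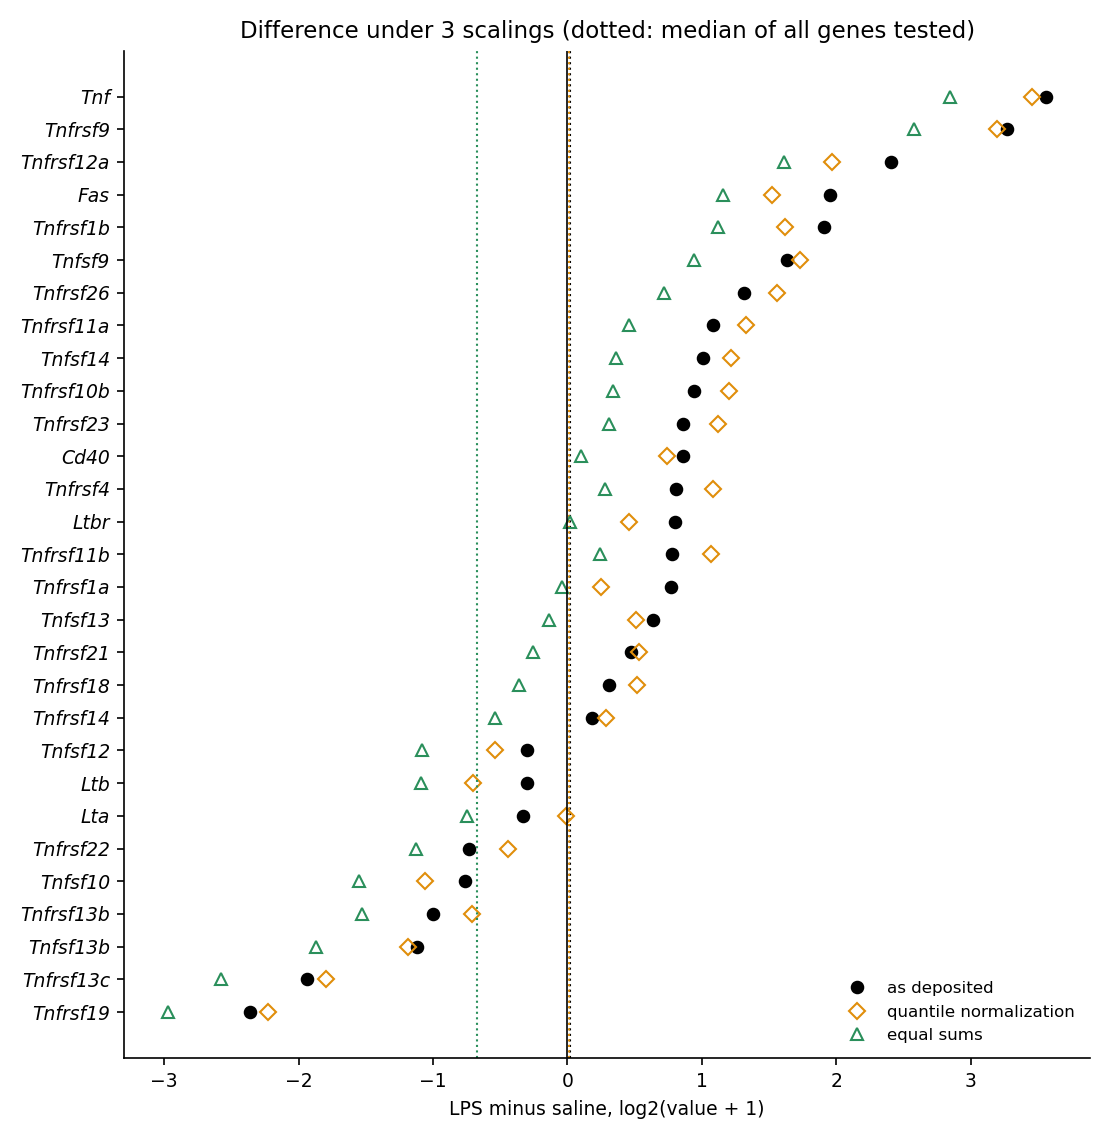
LPS minus saline difference on the log2(value + 1) scale, on the horizontal axis, of the 29 tested members as deposited (black), after quantile normalization (orange) and with equal sums (green); dotted lines mark the median of all genes tested under each. With equal sums every member lies to the left of its deposited value, Ltbr comes to 0.02 and Tnfrsf1a to -0.04, and the 7 members named above stay to the right of 0 with their call.

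Of 22 textbook pairs among the members, 13 had both partners tested, and pairs share partners. The list is not complete. It leaves out Tnfsf10 (-0.76) with the TRAIL decoys Tnfrsf11b (0.78), Tnfrsf22 (-0.73) and Tnfrsf23 (0.86), so the counts do not cover those pairs. In 4 pairs both were higher: Tnf with each of its receptors, Tnfsf9 with Tnfrsf9 and Tnfsf14 with Ltbr. In 2 pairs both were lower, Tnfsf13b with Tnfrsf13b and with Tnfrsf13c. The partners were called in opposite directions in 2 pairs, Tnfsf10 with Tnfrsf10b (ligand lower, receptor higher) and Tnfsf13 with Tnfrsf13b (ligand higher, receptor lower). In 4 pairs the receptor was higher and the ligand did not pass: Lta with either TNF receptor, Ltb with Ltbr and Tnfsf12 with Tnfrsf12a. In the remaining pair Tnfsf14 was higher and Tnfrsf14 did not pass. With equal sums both partners were higher in 2 pairs (Tnf with Tnfrsf1b, Tnfsf9 with Tnfrsf9), both were lower in the same 2 pairs of Tnfsf13b, and they were called in opposite directions in 2 others, Lta with Tnfrsf1b and Tnfsf12 with Tnfrsf12a.

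Promoter windows of 300 bases, 250 before to 50 after a start site, were available for 30 of the 38 members in RefSeq, with 34 windows in all. The NF-kB consensus was found on either strand in 3 of the 34 windows, those of Ltb, Tnfrsf8 and Tnfrsf9, against 4.51% of all 32851 windows. In Ltb the match lies at positions -87 to -78 from the RefSeq start site, which is inside the GENCODE gene, and is read on the opposite strand; the Ltb stretch printed above ends at the earlier GENCODE start. In Tnfrsf9 there are 2 overlapping matches, the first at -43 to -34 from a RefSeq start site inside the gene. Tnf, with the largest difference, had none in its window, and Ltb, which did not pass the test, had one. The AP-1 motif TGANTCA was found in 7 windows of 6 members, Fas, Tnfrsf8, Tnfrsf9, Tnfsf13, Tnfsf13b and Tnfsf14, against 7.81% of all windows. The windows of Tnfsf13b overlap and hold the same match, so that site is counted more than once among the 7. The TATA box letters TATAAA, searched on the gene's strand, were in 4 windows, one of them Tnf at -29 to -24, against 8.32% of all windows. The interferon response element core, on either strand, was also in 4, those of Tnfrsf14, Tnfrsf17, Tnfrsf1b and Tnfsf13b, against 3.44%. A match describes letters only and shows no binding.

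Genes that act downstream of these receptors are given as counts per list, to be read against the 25.7% higher and 24.3% lower of all genes tested. Among TRAF and cIAP adaptors, which link receptors to kinases and ubiquitin ligases, 5 of 9 were higher and 1 lower. Birc3 (2.11), which encodes an inhibitor of apoptosis, was highest, then Birc2 (1.06) and Traf1 (0.89), and Traf5 fell by 0.85. Among 13 genes of ubiquitin control, 6 were higher and 0 lower, with a median of 0.33. The feedback genes Tnfaip3 (3.52), which encodes the deubiquitinase A20, Tnip3 (3.12) and Tnip1 (2.66) led, followed by Tnip2 (0.75, or -0.01 with equal sums). The linear ubiquitin ligase genes Rnf31 and Rbck1 did not pass, at 0.33 and 0.03. With equal sums Birc2 (0.29) and Traf1 (0.12) no longer passed.

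In the death domain branch 4 of 8 genes were higher and 0 lower. The necroptosis genes Mlkl (1.78) and Ripk3 (1.34) were called as deposited and under both other scalings. Casp8 (0.69) and its inhibitor Cflar (0.64) turned to -0.09 and -0.14 with equal sums and did not pass with quantile normalization (0.44 and 0.22). Among the others, Fadd (0.05), Ripk1 (0.39), Tradd (0.46) and Cradd (0.26) did not pass. Of 4 genes of the non-canonical NF-kB branch, which Ltbr, Cd40, Tnfrsf13c and Tnfrsf12a feed, 3 were higher: Relb (1.63), Nfkb2 (1.37) and Chuk (0.56, or -0.20 with equal sums). Map3k14, the kinase gene of that branch, had a difference of 0.21 and did not pass. With equal sums Nfkb2 (0.59) no longer passed. Of 4 genes for shedding of TNF, Rhbdf2 (1.22), which carries the sheddase to the cell surface, was higher, while the sheddase gene Adam17 (0.36) did not pass. The Rhbdf2 call also ended with equal sums (0.47).

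Of 8 genes with Tnfaip symbols, for TNF-alpha-induced protein, 6 were higher and 0 lower, with a median of 0.94 on 2 LPS values each. Beside Tnfaip3 these were led by Tnfaip2 (2.37), Tnfaip6 (1.54), whose product binds hyaluronan, and Tnfaip8 (1.15, or 0.38 with equal sums, where it did not pass). The list includes genes named only as Tnfaip8-like: Tnfaip8l1 (0.72) was higher, while Tnfaip8l2 (0.39) and Tnfaip8l3 (-0.25) did not pass. Of 8 further genes of the superfamilies outside the symbol rule, 2 could be tested. The receptor gene Relt was higher (1.39), and Cd27, a receptor of lymphocytes, had a difference of -0.44 and did not pass. Cd70, Cd40lg, Eda, Edar, Eda2r and Ngfr were below the minimum.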

How the data were processed

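RNA from mouse lung was sequenced in 3 LPS and 3 saline libraries. The labels' protocols give Trizol for RNA extraction and a directional library kit. Alignment used TopHat and mm10, per the submitters' processing notes, while counting tool, annotation and scaling are not named in those sources. The authors deposited 1 table per library on a log2 scale, a unit read from the values (at least 0, not whole, up to 17.3). No 2 libraries shared a value of 1 or above for any gene.

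Genes with a value of at least 1 before the log in at least 3 libraries (13116 of 23183) entered one limma model (version 3.58.1, R 4.3.3, variance trend) on the deposited values, with Benjamini-Hochberg adjustment (threshold 0.05). A gene without a value in LPS 3 was fitted on its 5 values. The script was tested on simulated data. The members and gene lists were chosen with earlier results of these data known. Every member is accounted for. Members called with a difference of at least 1, their partners and Tnf have all values printed, and up to 4 called genes per pathway list and 2 per marker list, by size, are named; other list genes are named to account for the list. Summed levels add values before the log over genes with 6 values. Gene coordinates are from GENCODE M21 (mm10), promoters from RefSeq (GRCm38.p6). Alternatives were the filter, pseudocount, scaling, threshold, replicate block and leaving out libraries.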

Additional observations from a re-analysis of the deposited data

How the results depend on the processing

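Of 395 values of members under alternatives, 332 kept direction and side of the threshold, 53 no longer passed, 5 newly passed and 5 reversed. Some of these could not have moved. For the 24 tested members without a value in LPS 3, leaving out LPS 3 refits the same values. Leaving out LPS 3 and saline 2 repeats leaving out saline 2 for them. The threshold and the filters on values leave a difference unchanged, so its direction could not turn there. Fas, Tnfrsf12a, Tnfrsf1b and Tnfrsf26 were called higher, and Tnfrsf13b, Tnfrsf13c and Tnfrsf19 lower, under every alternative that gave them a value. Reversals came with equal sums alone: Tnfsf13 -0.14, Tnfrsf1a -0.04, Tnfrsf21 -0.26, Tnfrsf14 -0.54 and Tnfrsf18 -0.36, and among list genes Casp8 -0.09, Cflar -0.14, Chuk -0.20 and Tnip2 -0.01. With equal sums 798 genes were called higher and 8342 lower, and 7 members higher. A mean value of at least 5, which tests fewer genes, gave 1752 genes lower and 10 members higher; a threshold of 0.01 gave 2033 higher and 2004 lower genes and 11 members higher; no filter gave 9 members higher. Leaving out 1 library gave 2461 to 3660 genes higher and 2440 to 3436 lower, 10 to 17 members higher and 5 to 6 lower. Without both LPS 3 and saline 2, 16 members were higher and 6 lower. Apart from the equal sums, the filter and the threshold, the cause of these shifts was not tested. Same-numbered libraries deviated from their group means with correlations of -0.234, -0.078 and -0.252 over 10295 genes, so the numbers were not read as pairs. With the replicate block, 2793 genes were higher and 2624 lower, and 12 members were higher and 6 lower. The tables give no depth, and most members rest on 2 LPS values.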
